A study of Mus musculus with 4 samples.

Results

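The V and J segments of the TCR alpha chain were read in tumor-infiltrating T cells from mice labelled WT and VISTA-KO. Of 20170 cells that passed the quality filters, 7269 labelled WT and 7778 labelled VISTA-KO had a TRA contig. Of the cells with a TRA contig, 13173 fell into 1 of the 3 gates described below. For each cell, the V and J call of the TRA contig with the most UMIs was taken. The cells were then placed in 3 gates by their own transcripts. CD8 cells had at least 1 UMI of Cd8a or Cd8b1 and none of Cd4, conventional CD4 cells had at least 1 UMI of Cd4 and none of Foxp3, and regulatory cells had at least 1 UMI each of Foxp3 and Cd4. The CD8 gate held 4239 cells with a TRA contig in the library labelled WT and 3527 in the library labelled VISTA-KO. The conventional CD4 gate held 1194 and 2408 such cells, and the regulatory gate 830 and 975. Usage was counted over distinct clonotypes, each counted once in a gate, so that an expanded clonotype weighed no more than a clonotype of 1 cell. A clonotype was defined by the V gene, J gene and CDR3 nucleotides of both chains. Usage therefore rests on the gated cells that also had a TRB contig, 6080 labelled WT and 6701 labelled VISTA-KO. Only the leading contig of each chain was used, so a clone whose leading contig differed between its cells could count as several clonotypes. A clonotype with cells in more than 1 gate was counted in each of them, so the gates share some clonotypes. This held for 110 of 2368 gated clonotypes labelled WT (4.65%) and 113 of 3868 labelled VISTA-KO (2.92%). The gates gave 1148, 779 and 556 clonotypes in the library labelled WT and 1656, 1509 and 820 in the library labelled VISTA-KO, in the order CD8, conventional CD4 and regulatory.

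VISTA is an inhibitory checkpoint protein of the B7 family, found on myeloid cells and T cells and encoded by Vsir. The mice labelled VISTA-KO carried floxed Vsir alleles and a Cre transgene under the CD4 promoter (Vsir fl/fl CD4cre), which is active in the thymus before the CD4 and CD8 lineages part, and the mice labelled WT were Vsir fl/fl littermates without Cre. Both were on the C57BL/6 background and 6 to 8 weeks old, and both carried B16bl6 melanomas, a tumor line of the same background. Every mouse received a peptide vaccine (a TRP2 peptide with the adjuvants CpG and R848) on day 3 of tumor growth and the CTLA-4 antibody 9H10 on days 4 and 8, and tumors were taken 18 days after treatment. Tumors of several mice were pooled before CD4+ and CD8+ cells were sorted, with 5 to 6 mice given in the study's methods and 6 to 8 tumors in its legend, and each genotype gave 1 gene expression library and 1 TCR library. Genotype, pool of mice and library cannot be told apart, and no p-value is given. The 95% intervals are exact (Clopper-Pearson for shares, conditional binomial for ratios of shares) and cover counting error only.

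The targeted gene did not separate the libraries. Over the gated cells with a TRA contig, Vsir was at 114 CPM (UMIs scaled to an equal total per library) in the library labelled WT and at 113 CPM in the library labelled VISTA-KO, and 45.3% and 44.5% of cells held a Vsir UMI. Which part of the transcript the floxed alleles lack is not given in the sources used here, and counts over the whole gene may lie outside it, so Vsir does not check the labels. For this reason the libraries are named by their labels throughout. The gates were checked on transcripts that did not define them. Cd40lg, a ligand made by helper T cells, had a UMI in 46.1% and 53.9% of conventional CD4 cells and in 2.04% and 5.63% of CD8 cells. Ikzf2, a transcription factor of regulatory T cells, had a UMI in 89.1% and 89.0% of regulatory cells and in 19.6% and 16.6% of conventional CD4 cells. Nkg7, listed for CD8 cells, was in 97.8% and 97.4% of CD8 and 67.8% and 72.8% of conventional CD4 cells. Not every listed marker separated the gates. Runx3, also listed for CD8 cells, was in 55.0% and 56.3% of CD8 and 55.1% and 55.3% of conventional CD4 cells. Izumo1r, listed for CD4 cells, was in 17.7% and 14.5% of conventional CD4 and 59.3% and 51.1% of regulatory cells. Cd8b1 UMIs were also present in 15.8% and 12.9% of conventional CD4 cells and in 25.4% and 21.6% of regulatory cells. The libraries held 72098984 and 59916814 UMIs of gene expression, shared 145 cell barcodes and shared 3 clonotypes, carried by 10 cells. A TRA contig was present in 54.3% of regulatory cells labelled WT against 76.8% of those labelled VISTA-KO, which had a median of 8839 and 5939 UMIs. In the other gates that share lay between 67.5% and 81.1%.

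An alpha chain is made in the thymus by joining 1 V segment to 1 J segment, with bases trimmed and added at the junction. Joining can repeat on the same chromosome, each round using V segments farther out and J segments farther in, until a receptor passes selection on MHC class I (CD8 cells) or class II (CD4 cells). NKT cells are an exception to the diversity that results, since they share an invariant alpha chain of TRAV11 with TRAJ18 that recognizes lipids on CD1d, as MAIT cells share TRAV1 with TRAJ33 that recognizes vitamin metabolites on MR1. The germline ends and junctions that follow are read from the deposited contigs and their germline alignments, from the conserved cysteine codon of the V segment to the codon that closes the CDR3. They are shown because they are the J segments called different between CD8 and conventional CD4 clonotypes and the junctions that recurred most.

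The J segments with the larger share of CD8 clonotypes are shown first, followed by those with the larger share of conventional CD4 clonotypes, as germline sequence from the first base to the end of the CDR3:
TRAJ22: catcttctggcagctggcaactcatcttt
TRAJ30: tgacacaaatgcttacaaagtcatcttt
TRAJ26: gaaataactatgcccagggattaaccttc
TRAJ37: taacaggcaataccggaaaactcatcttt
TRAJ42: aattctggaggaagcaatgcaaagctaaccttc
TRAJ18: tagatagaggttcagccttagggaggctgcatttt

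The most frequent junctions of TRAV11 with TRAJ18 are shown under the germline end of TRAV11. Capitals mark bases that match neither germline end, and the 4 junctions differ at 1 position:
TRAV11 germline: tgtgtggtgggcg
NKT alpha 1: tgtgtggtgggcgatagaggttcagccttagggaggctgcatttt
NKT alpha 2: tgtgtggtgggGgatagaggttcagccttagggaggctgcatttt
NKT alpha 3: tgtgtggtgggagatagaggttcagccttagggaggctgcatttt
NKT alpha 4: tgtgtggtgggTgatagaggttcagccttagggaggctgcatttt

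The junctions of other alpha chains found with many beta chains are shown next, with capitals as before, followed by the largest clonotype of each library:
TRAV12-3 TRAJ40: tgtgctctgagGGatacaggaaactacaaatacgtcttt
TRAV12-2 TRAJ40: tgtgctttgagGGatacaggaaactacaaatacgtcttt
TRAV6N-7 TRAJ30: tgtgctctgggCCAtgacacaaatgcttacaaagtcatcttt
TRAV6N-7 TRAJ30: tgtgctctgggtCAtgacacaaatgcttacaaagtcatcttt
TRAV14D-2 TRAJ30: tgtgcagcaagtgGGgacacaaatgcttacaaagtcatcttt
TRAV7D-2 TRAJ16: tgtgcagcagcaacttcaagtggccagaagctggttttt
TRAV7D-2 TRAJ16: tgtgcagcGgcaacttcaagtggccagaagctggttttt
TRAV10N TRAJ9: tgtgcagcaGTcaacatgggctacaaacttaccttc
TRAV16N TRAJ17: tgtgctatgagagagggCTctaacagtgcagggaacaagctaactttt

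All 89 TRAV names and 43 TRAJ names of the contigs matched the RefSeq annotation of chromosome 14 (GRCm38). The V names fell into 48 genes once the near-identical copies marked D and N were merged, and into 20 families. CD8 and conventional CD4 clonotypes drew on these families unequally, and in the same way in both libraries. A family was compared where it had at least 20 clonotypes over the pair of gates in each library, and called different where the ratio of shares was at least 1.5-fold the same way in both. Of 13 families compared, 5 were called (38.5%), 3 with the larger share in CD8 (23.1%) and 2 with the larger share in conventional CD4 (15.4%).

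TRAV12 was the most used family of CD8 clonotypes. It made up 15.7% of CD8 and 8.47% of conventional CD4 clonotypes in the library labelled WT, a ratio of 1.85 (95% interval 1.39 to 2.49). In the library labelled VISTA-KO the shares were 17.7% and 8.61%, a ratio of 2.05 (1.66 to 2.54). Both ratios lay above 1 by more than counting error, and regulatory clonotypes, at 9.35% and 11%, lay nearer to the conventional CD4 values. TRAV16 showed the largest ratio of the 13 in both libraries. Its shares were 8.97% of CD8 and 2.82% of conventional CD4 clonotypes labelled WT, a ratio of 3.18 (1.99 to 5.29), and 8.64% and 3.98% labelled VISTA-KO, a ratio of 2.17 (1.60 to 2.99). TRAV3 was the third family with a larger CD8 share, at 4.09% against 2.18% (ratio 1.88, 1.06 to 3.49) and 5.25% against 2.85% (ratio 1.84, 1.27 to 2.72). Counted by cells, the WT ratios of TRAV12 and TRAV3 were 1.47 and 1.05.

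TRAV4 ran the other way. It held 3.75% of CD8 and 10.0% of conventional CD4 clonotypes labelled WT, a ratio of 0.374 (0.252 to 0.550). Labelled VISTA-KO, it held 3.74% and 9.21%, a ratio of 0.406 (0.296 to 0.552). Regulatory clonotypes used TRAV4 at 9.71% and 10.1%, close to the conventional CD4 level. TRAV11 was the other family called, at 1.13% against 3.59% (ratio 0.315, 0.150 to 0.629) and 0.604% against 1.99% (ratio 0.304, 0.132 to 0.638), and nearly all of it was the NKT pair described further on. With the alpha rearrangement alone as the clonotype, its ratio labelled WT was 0.675, and without the NKT pair its ratio labelled VISTA-KO was 0.899, so either ended the call.

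**Figure D1:**
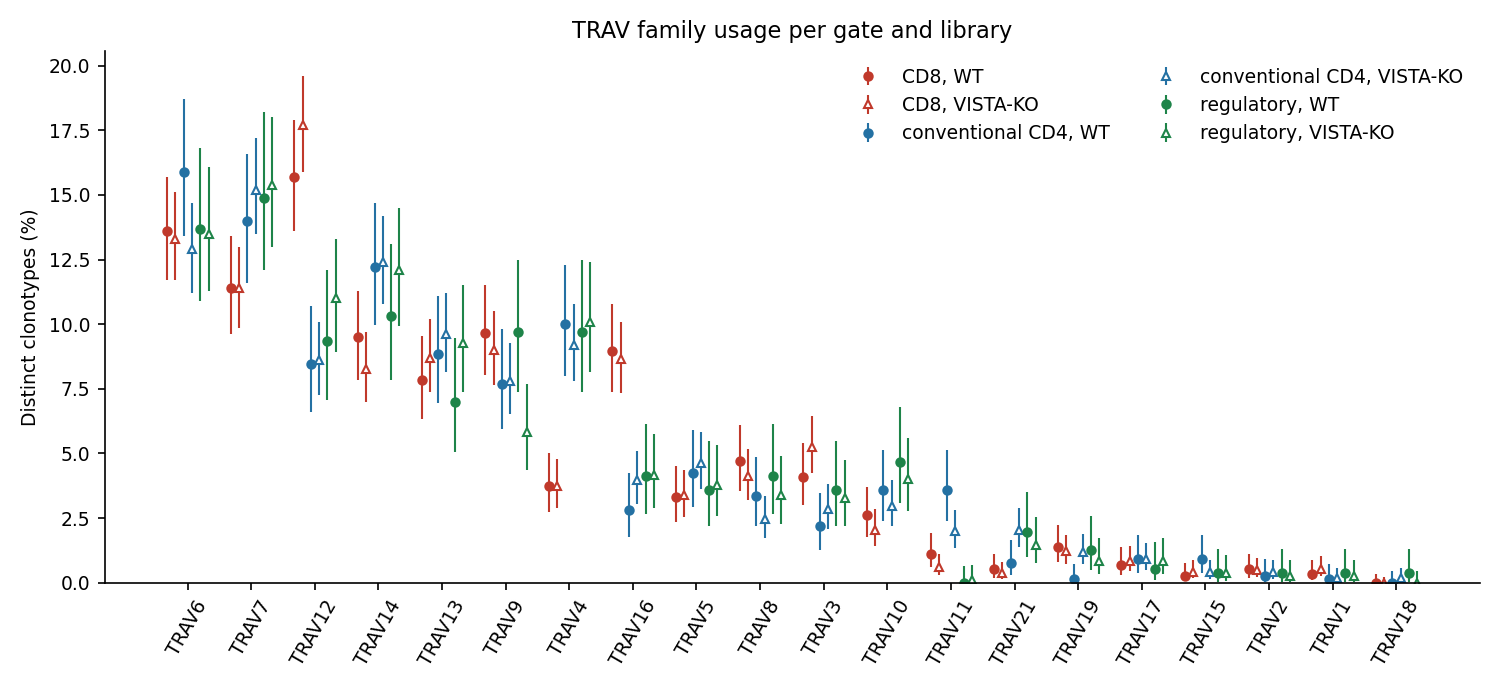
Share of distinct clonotypes (%) that used each TRAV family, by gate (colour) and library (filled circles WT, open triangles VISTA-KO), with exact 95% intervals. TRAV12 and TRAV16 lie higher in CD8 (15.7% and 8.97% in WT) than in conventional CD4 clonotypes (8.47% and 2.82%), and TRAV4 lies lower (3.75% against 10.0%).

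The other common families differed less between the gates. TRAV6 held 12.9% to 15.9% of clonotypes over all gates and libraries, TRAV13 held 7.01% to 9.61%, and TRAV9 5.85% to 9.71%. TRAV7 held 11.4% of CD8 clonotypes in both libraries, against 14% and 15.2% of conventional CD4 clonotypes. TRAV8 and TRAV14 fell just short of a call, with CD8 over conventional CD4 ratios of 1.41 and 1.67 for TRAV8 and 0.779 and 0.668 for TRAV14. Of the 13 families, 12 had a ratio on the same side of 1 in both libraries, and the log2 ratios of the libraries correlated across families with a Pearson r of 0.972 and a Spearman rho of 0.984 (n = 13 families, given as a description, since the families of a gate share its cells).

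Single V genes showed which members carried the family differences. Of 29 V genes compared, 11 were called (37.9%). Within TRAV12, TRAV12-2 stood at 7.93% of CD8 against 3.59% of conventional CD4 clonotypes labelled WT and 9.12% against 3.84% labelled VISTA-KO, and TRAV12-3 at 6.45% against 3.34% and 6.52% against 3.51%. TRAV12-1 had ratios of 0.848 and 1.63 and was not called. Within TRAV4, TRAV4-4 was the member that differed most, at 1.92% against 6.93% and 2.11% against 5.96%. TRAV3-3, TRAV6-6, TRAV8-2 and TRAV9-3 had larger CD8 shares in both libraries, with ratios from 1.55 to 3.06, although the TRAV6 and TRAV9 families as a whole were not called. TRAV4-3 and TRAV7-6 had smaller CD8 shares, with ratios from 0.400 to 0.646. The share intervals of CD8 and conventional CD4 clonotypes overlapped in both libraries for TRAV6-6, TRAV9-3 and TRAV4-3. For TRAV8-2 and TRAV7-6 they overlapped in the library labelled WT.

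J segments also differed between these gates. Of 34 TRAJ segments compared between CD8 and conventional CD4 clonotypes, 6 were called (17.6%), 3 with the larger share in CD8 (8.82%) and 3 with the larger share in conventional CD4 (8.82%). Of the called segments, TRAJ22 had the largest ratio in both libraries, at 6.36% of CD8 against 2.95% of conventional CD4 clonotypes labelled WT (ratio 2.15, 1.33 to 3.61) and 6.64% against 3.18% labelled VISTA-KO (ratio 2.09, 1.47 to 3.00). TRAJ30 stood at 5.75% against 2.82% (ratio 2.04, 1.24 to 3.46) and 5.62% against 3.05% (ratio 1.84, 1.28 to 2.68). TRAJ26 stood at 5.40% against 2.70% (ratio 2.00, 1.20 to 3.46) and 4.47% against 2.58% (ratio 1.73, 1.16 to 2.62). These were the 3 most used J segments of CD8 clonotypes in the library labelled WT, and 2 of them, TRAJ22 and TRAJ30, led in the library labelled VISTA-KO.

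Conventional CD4 clonotypes had the larger share of TRAJ37, TRAJ42 and TRAJ18. TRAJ37 was used by 2.61% of CD8 and 4.62% of conventional CD4 clonotypes labelled WT (ratio 0.565, 0.336 to 0.944) and by 1.99% and 5.43% labelled VISTA-KO (ratio 0.367, 0.237 to 0.556). TRAJ42 was used by 1.83% and 3.47% (ratio 0.528, 0.284 to 0.969) and by 2.29% and 3.58% (ratio 0.641, 0.412 to 0.989). The upper bounds of TRAJ42 came close to 1 in both libraries, and its call was lost with every alpha contig (0.741 labelled WT) and with cells counted (0.784 labelled VISTA-KO). TRAJ18 had ratios of 0.560 (0.342 to 0.910) and 0.497 (0.307 to 0.789), and without the cells that paired it with TRAV11 the ratio labelled WT was 1.04. The J segment most used by conventional CD4 clonotypes was TRAJ31, at 5.26% and 7.09%, which CD8 clonotypes used at 3.92% and 3.99%. Of the 34 segments, 28 had ratios on the same side of 1 in both libraries, with a Pearson r of 0.656 between the log2 ratios (a description across segments).

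**Figure D2:**
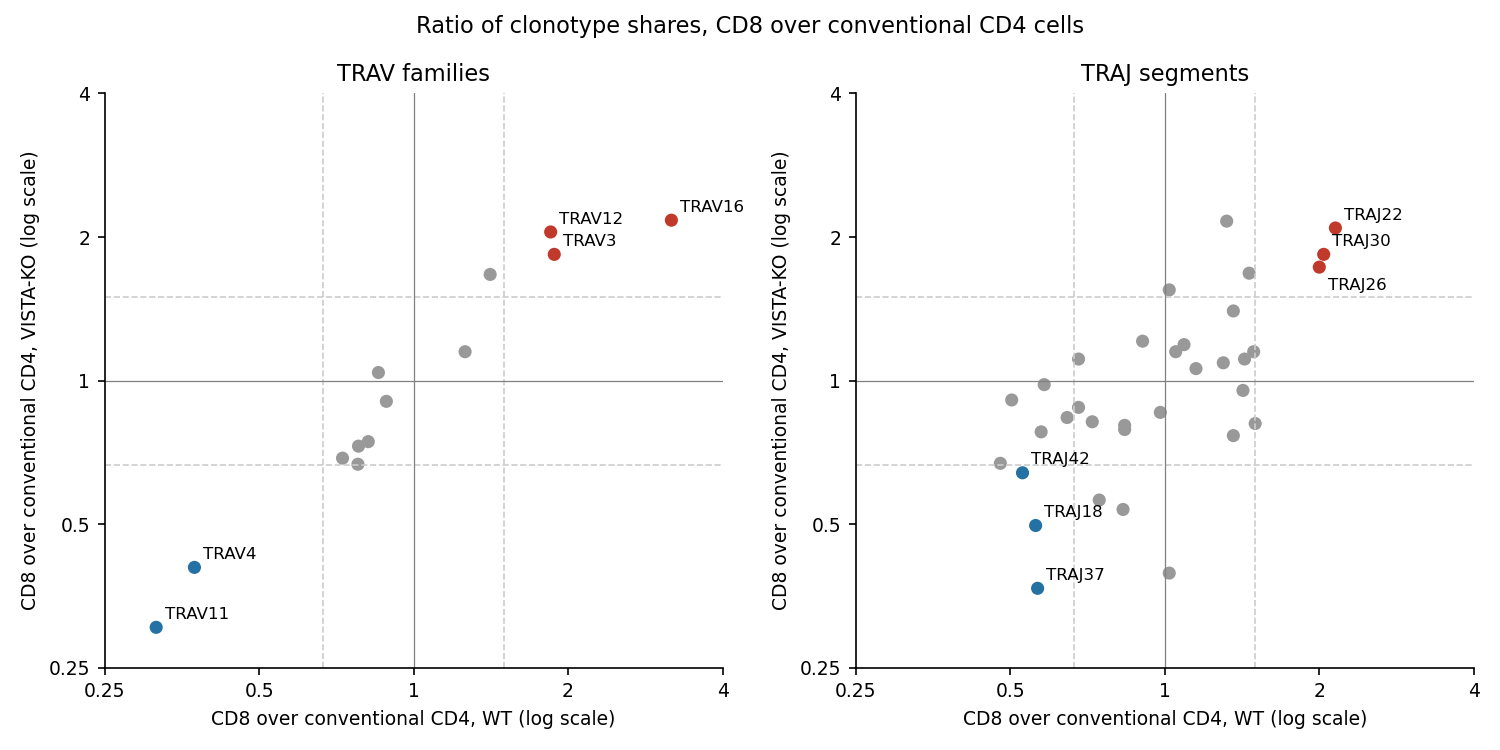
Ratio of clonotype shares, CD8 over conventional CD4, in the library labelled WT (horizontal, log scale) and in the library labelled VISTA-KO (vertical, log scale), for 13 TRAV families (left) and 34 TRAJ segments (right). Dashed lines mark 1.5-fold, and named points passed it in both libraries, with TRAV16 at 3.18 and 2.17 and TRAV4 at 0.374 and 0.406.

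Regulatory clonotypes were close to conventional CD4 clonotypes in V usage. Of 13 TRAV families compared, 1 was called (7.69%), which was TRAV11. It was found in 28 of 779 conventional CD4 and 0 of 556 regulatory clonotypes labelled WT, at least 6.66-fold lower in regulatory clonotypes against a floor of 3 clonotypes. The exact interval of that ratio, which also covers the counting error of the 28, reached up to 0.197. Labelled VISTA-KO it was found in 30 of 1509 and 1 of 820, a ratio of 0.0613 (0.00150 to 0.369). Of 29 TRAJ segments, 2 were called (6.90%), 1 in each direction (3.45% each). TRAJ18, the partner of TRAV11, had ratios of 0.315 (0.135 to 0.660) and 0.301 (0.131 to 0.614). Without the cells that paired it with TRAV11 these were 0.871 and 0.602, and the call was lost. TRAJ22, at 5.22% of regulatory clonotypes labelled WT and 5.37% labelled VISTA-KO, had regulatory over conventional CD4 ratios of 1.77 (0.987 to 3.20) and 1.69 (1.09 to 2.59), so that the first interval reached below 1. The ratio labelled WT was 1.44 without cells of 2 or more beta chains and 1.48 with every alpha contig, which ended the call. Among single V genes, TRAV13-1 and TRAV14-2 joined TRAV11 in the 3 of 28 called (10.7%), with regulatory over conventional CD4 ratios of 0.611 and 0.629 for TRAV13-1 and 0.280 and 0.664 for TRAV14-2.

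A distance between whole profiles, the percent of clonotypes that would have to change segment to turn 1 profile into the other, put these differences side by side. It depends on the number of clonotypes and was not tested. For TRAV families it was 20.4% (WT) and 19.9% (VISTA-KO) between CD8 and conventional CD4, and 11.5% and 6.74% between regulatory and conventional CD4. Between the libraries it was 4.61% in CD8, 7.47% in conventional CD4 and 7.18% in regulatory clonotypes. The largest distance in V usage was thus between CD8 and conventional CD4 clonotypes of 1 library, and the smallest between the CD8 clonotypes of both libraries. For TRAJ the distance was 19.5% and 18.6% between CD8 and conventional CD4, and 17.2% and 14.4% between regulatory and conventional CD4. Between the libraries it was 9.50% in CD8, 14% in conventional CD4 and 15.8% in regulatory clonotypes. The TRAJ distance ran over 43 segments and the TRAV distance over 20 families. Between the libraries, too, the TRAJ distance was the larger one in every gate. Distances in J usage are therefore not compared with those in V usage.

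Between the libraries labelled VISTA-KO and WT, few V families passed 1.5-fold within a gate. Here a segment was compared where it had at least 20 clonotypes over both libraries together, and a single ratio past 1.5-fold was enough. The rule between gates was stricter, since it needed both libraries, so the shares called are not compared with those between gates. In CD8 clonotypes 1 of 15 families did so (6.67%), TRAV11, at 0.604% labelled VISTA-KO against 1.13% labelled WT (ratio 0.533, 0.209 to 1.32). These were 10 and 13 clonotypes of 1 cell each. As a share of CD8 cells, TRAV11 was nearly equal, at 0.289% labelled VISTA-KO and 0.313% labelled WT. In conventional CD4 clonotypes 2 of 15 families passed 1.5-fold (13.3%). TRAV11 stood at 1.99% against 3.59% (ratio 0.553, 0.319 to 0.961), and TRAV21, the V segment nearest to the J segments once pseudogenes are left out, at 2.05% against 0.770% (31 and 6 clonotypes, ratio 2.67, 1.10 to 7.82). In regulatory clonotypes 1 of 13 did (7.69%), TRAV9, at 5.85% against 9.71% (ratio 0.603, 0.400 to 0.906). The separate intervals of the libraries overlapped for all 4. The ratios have no replicate check, and their direction rests on the labels. Among single V genes, 2 of 33 passed in CD8 clonotypes (6.06%), 1 in each direction (3.03% each). In conventional CD4 clonotypes 5 of 33 passed (15.2%), 3 with the larger share labelled VISTA-KO (9.09%) and 2 labelled WT (6.06%), and in regulatory clonotypes 5 of 29 (17.2%), 3 (10.3%) and 2 (6.90%). The highest ratio was that of TRAV13-4 in conventional CD4 clonotypes, at 1.72% labelled VISTA-KO against 0.642% labelled WT (2.68), and the lowest that of TRAV9-2 in regulatory clonotypes, at 1.34% against 3.06% (0.439).

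For J segments the numbers past 1.5-fold between the libraries were 6 of 40 in CD8 (15.0%), 10 of 35 in conventional CD4 (28.6%) and 10 of 30 in regulatory clonotypes (33.3%). In CD8, 3 had the larger share labelled VISTA-KO (7.50%) and 3 labelled WT (7.50%). In conventional CD4 these were 7 (20%) and 3 (8.57%), and in regulatory clonotypes 6 (20%) and 4 (13.3%). The interval of the ratio left out 1 for 8 of these 26. The 26 were picked for their ratios from the 40, 35 and 30 compared, and the others were given no interval. The 8 are therefore not a share of all segments compared, and some would leave out 1 by counting error alone. TRAJ58, a J segment at the end of the cluster near the V segments, was the only called segment whose share intervals did not overlap, at 2.19% (1.51 to 3.06) of conventional CD4 clonotypes labelled VISTA-KO against 0.642% (0.209 to 1.49) labelled WT, a ratio of 3.41 (1.32 to 11.2) from 33 and 5 clonotypes. Of the segments compared in conventional CD4 clonotypes, the next highest ratios were those of TRAJ57 and TRAJ6. TRAJ57 stood at 2.58% against 1.16% (ratio 2.24). TRAJ6, which lies toward the other end of the cluster, stood at 1.99% against 1.03% (ratio 1.94). The lowest ratios in conventional CD4 clonotypes were those of TRAJ17 (0.457), TRAJ48 (0.459) and TRAJ16 (0.596). In CD8 clonotypes the ratios ran from 0.563 for TRAJ16, 0.630 for TRAJ18 and 0.655 for TRAJ9 to 1.54 for TRAJ27, 1.62 for TRAJ53 and 2.18 for TRAJ24. In regulatory clonotypes they ran from 0.441 for TRAJ7, 0.522 for TRAJ53 and 0.626 for TRAJ17 to 1.65 for TRAJ44, 1.83 for TRAJ32 and 2.42 for TRAJ43. The 26 segments rested on 5 to 54 clonotypes labelled WT and 10 to 65 labelled VISTA-KO.

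Counted by cells in place of clonotypes, a few expanded clones set the usage of CD8 cells. TRAV10 was used by 2.61% of CD8 clonotypes labelled WT but by 25.8% of the cells, and TRAJ9 by 4.70% and 26.6%. Most of these cells carried the TRAV10N TRAJ9 junction printed above, whose clonotype held 1063 cells, 15.1% of the library's cells with both chains, of which 1034 lay in the CD8 gate. In the library labelled VISTA-KO the widest gaps were those of TRAV16, with 8.64% of clonotypes and 17.1% of cells, and TRAJ17, with 1.69% and 9.22%. Its largest clonotype, TRAV16N TRAJ17, held 292 cells (3.89%). In both libraries the segments with the widest gaps in the CD8 gate were those of its largest clonotype.

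The position of a V gene on chromosome 14 was related to the J segments it was joined to. TRAJ numbers fall from the end of the J cluster near the V genes to the end near the constant gene. The V genes called lay 278 to 1726 kb from the first TRAJ segment, which begins a cluster of 63.8 kb. With copies merged, and over V genes with at least 20 clonotypes, the median TRAJ number per V gene was lower at a larger median distance of its copies, with a Spearman rho of -0.590 (34 V genes) labelled WT and -0.715 (36 V genes) labelled VISTA-KO. With the copies kept apart as called, rho was -0.875 (48) and -0.773 (58). Within single gates, copies merged, the relation was uneven. It was -0.516 (24 V genes) and -0.551 (28) in CD8 clonotypes, -0.0664 (20) and -0.315 (28) in conventional CD4 clonotypes, and -0.188 (10) and -0.609 (20) in regulatory clonotypes. With copies merged it was thus near 0 in conventional CD4 clonotypes labelled WT. With the copies kept apart, rho was -0.859 (18) and -0.845 (32) in CD8 clonotypes. In conventional CD4 clonotypes it was -0.690 (8) and -0.805 (35). For regulatory clonotypes it was -0.858 (12) labelled VISTA-KO, with no value labelled WT. These are descriptions across V genes of 1 library, which share its cells. TRAV11 stood off the trend, with a median of TRAJ18 at 635.1 kb.

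Bins of distance, chosen after the values were seen, showed the same relation in shares. Of the clonotypes whose V gene lay within 500 kb, 70.4% labelled WT and 68.2% labelled VISTA-KO used TRAJ40 or a higher number. Beyond 1000 kb the shares were 13% and 15.9%. For TRAJ20 or lower they were 4.11% and 3.47% within 500 kb and 41.6% and 34.8% beyond 1000 kb. The intervals of the near and far bins did not overlap in either library, and in each gate the share of TRAJ40 or higher was largest in the near bin and smallest in the far bin.

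**Figure D3:**
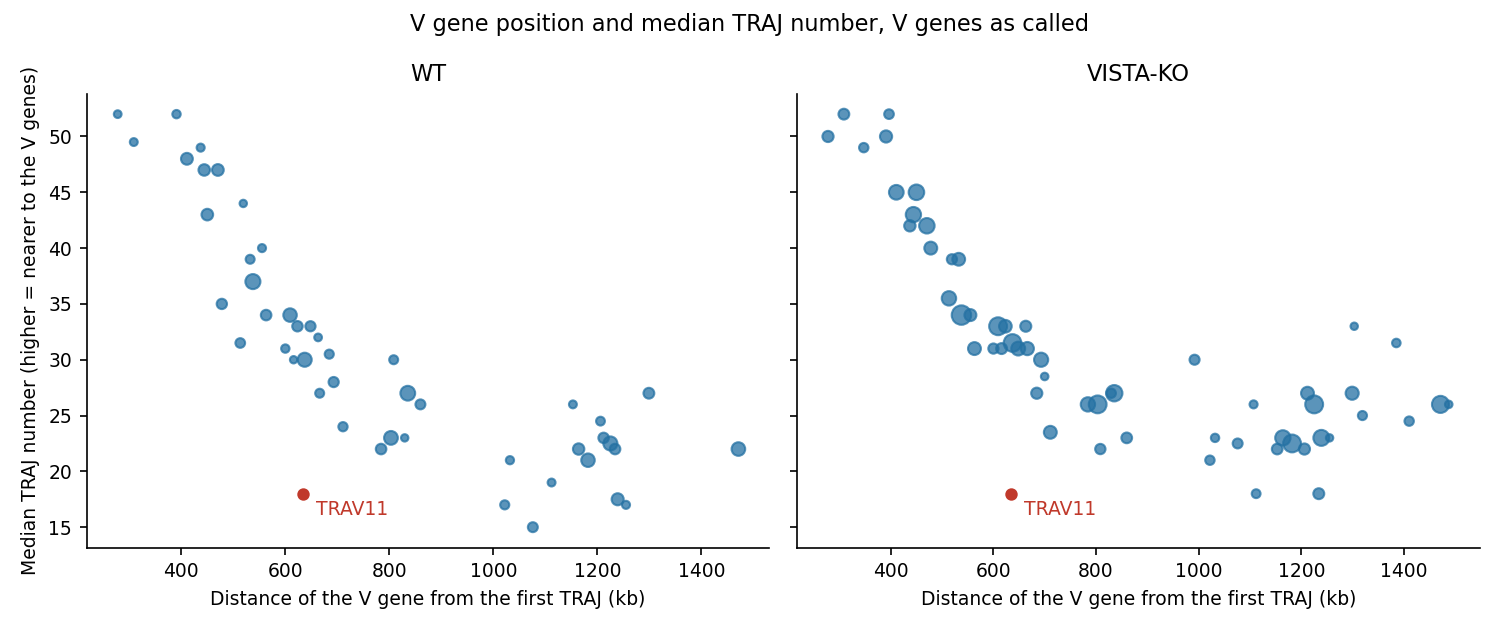
Median TRAJ number of the clonotypes of each V gene as called (vertical, higher numbers lie nearer to the V genes) against the distance of the V gene from the first TRAJ (kb, horizontal), over the 3 gates, for 48 V genes labelled WT (left) and 58 labelled VISTA-KO (right). Point area follows the number of clonotypes, and TRAV11 (red), at 635.1 kb with a median of TRAJ18, lies below the other V genes at its distance.

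Copies of the same V gene gave this comparison with the V sequence held nearly constant. The mouse locus holds duplicated blocks, so that TRAV12-2, for example, has the copy TRAV12D-2 farther out. For 16 V genes, 2 copies had at least 20 clonotypes in each library, and in 16 of 16 the nearer copy had the higher median TRAJ number in both libraries. TRAV12-2, at 538.1 kb, had medians of 37 (WT) and 34 (VISTA-KO), and TRAV12D-2, at 1239 kb, of 17.5 and 23.0. TRAV16, at 411.3 kb, had medians of 48 and 45, and TRAV16N, at 803.4 kb, of 23 and 26. The smallest gap was that of TRAV14-1 and TRAV14D-1, with 31.0 against 27.0 in both libraries. This comparison too was chosen after the values were seen. Copies were called from sequence that they nearly share, and 12 of 33 V genes with copies had copies with identical last 60 germline bases, so single copies are uncertain.

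With copies merged, 964 of 2064 possible V-J pairs (46.7%) were found in the gated clonotypes labelled WT and 1193 (57.8%) in those labelled VISTA-KO. The number of pairs found depends on the number of gated clonotypes, which was 2368 and 3868, so these shares are not compared. The pair that stood above all others was TRAV11 with TRAJ18, with 37 clonotypes labelled WT against 1.35 expected from the separate use of the segments, a ratio of 27.4, and a ratio of 36.9 labelled VISTA-KO. The next pairs by the lower of the 2 ratios, among those with at least 5 clonotypes in each library, were TRAV7-3 with TRAJ12 (2.78 and 2.97), TRAV10 with TRAJ33 (3.70 and 2.63), TRAV3-3 with TRAJ15 (3.20 and 2.47) and TRAV12-3 with TRAJ40 (2.77 and 2.39). The other 5 of the first 10 had ratios from 1.76 to 2.88. These pairs were chosen for their ratios, which are a description.

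The invariant NKT pair, TRAV11 with TRAJ18, was carried by 126 of 7269 cells with a TRA contig labelled WT (1.73%, 1.45 to 2.06) and by 110 of 7778 labelled VISTA-KO (1.41%, 1.16 to 1.70). It was most frequent in cells of no gate, at 8.85% (7.16 to 10.8) and 8.41% (6.65 to 10.5). Cells of no gate held no UMI of Cd4, Cd8a or Cd8b1, although CD4+ and CD8+ cells had been sorted. Their median of 3445 and 3762.5 UMIs was below that of every gate. Of 917 and 793 such cells without the pair, 293 and 248 held a Foxp3 UMI and 270 and 234 a Cd40lg UMI. Whether cells of no gate lacked CD4 and CD8 or had transcripts that were missed was not tested. Conventional CD4 cells had 2.18% (1.43 to 3.17) and 1.16% (0.774 to 1.68), and CD8 cells 0.259% and 0.255%. None was found among 830 and 975 regulatory cells, which allows a share of up to 0.361% and 0.308% at a floor of 3 cells, and the exact 95% intervals reached 0.443% and 0.378%. The order of the gates was the same in both libraries. However, the intervals of CD8 cells (0.130% to 0.464% and 0.117% to 0.484%) overlapped those of regulatory cells, so these gates were not told apart.

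**Figure D4:**
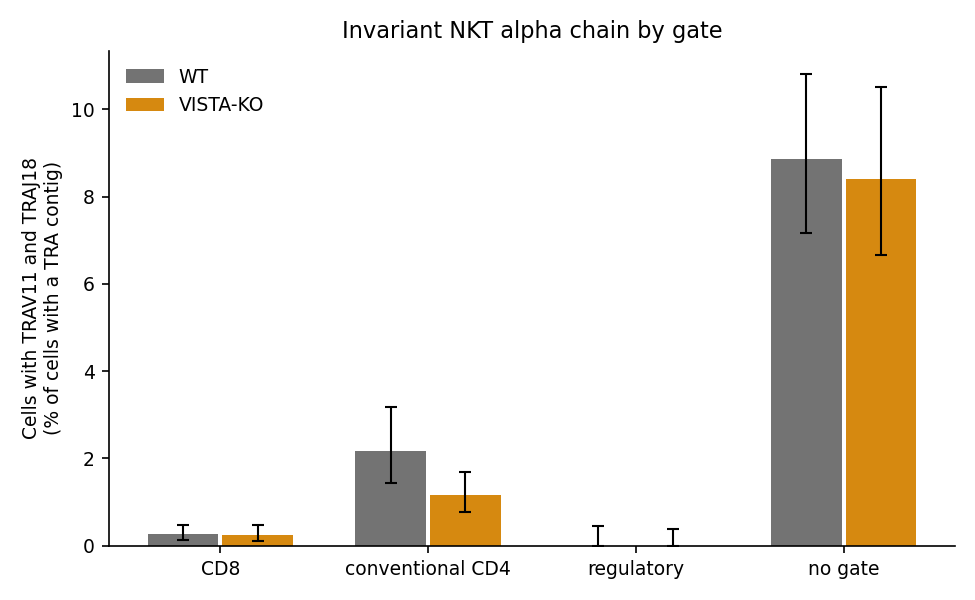
Cells with TRAV11 and TRAJ18 as a percent of the cells with a TRA contig, by gate, in the library labelled WT (grey) and the library labelled VISTA-KO (orange), with exact 95% intervals. Cells of no gate had 8.85% and 8.41%, conventional CD4 cells 2.18% and 1.16%, and regulatory cells 0.

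These cells were many small clones with 1 alpha chain. They formed 125 clonotypes labelled WT and 106 labelled VISTA-KO, none of more than 2 cells. Their alpha junctions came down to 11 nucleotide sequences, of which 7 were found in both libraries, and 216 of the 236 cells (91.5%) encoded the same CDR3. NKT alpha 1 to 4, printed above, were carried by 80, 68, 40 and 26 cells and differ only in the last base of a glycine codon, which leaves the protein unchanged. NKT alpha 1 and 3 hold no base from outside the germline ends. Of the cells with TRAV11, 94.7% and 93.2% used TRAJ18.

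Of the clonotypes with the NKT pair, 88 of 125 labelled WT and 70 of 106 labelled VISTA-KO lay in no gate. The beta chains of the whole set were narrower than those of conventional CD4 clonotypes without the pair. TRBV13, TRBV29 and TRBV1, which encode the Vβ8, Vβ7 and Vβ2 chains known from NKT cells, together made up 96.0% (90.9 to 98.7) labelled WT and 90.6% (83.3 to 95.4) labelled VISTA-KO. Conventional CD4 clonotypes without the pair used them at 33.2% and 30.7%. TRBV29 alone stood at 22.4% and 27.4%, against 1.73% and 2.30%, and TRBV13 at 68.0% and 54.7%, against 25.9% and 23.0%. TRBV1 did not differ beyond counting error, at 5.60% (2.28 to 11.2) and 8.49% (3.96 to 15.5), against 5.58% and 5.47%.

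Transcripts, which the pair did not use, separated these cells from conventional CD4 cells without the pair as well. Zbtb16, the PLZF transcription factor that directs NKT development, had a UMI in 28.6% and 34.5% of the cells with the pair. Its share was 0.685% and 0.546% of conventional CD4 cells without the pair. Median depths were 4023 and 4941 against 3626 and 4174 UMIs. Klrb1c (NK1.1) stood at 49.2% and 54.5% against 0.685% and 0.588%, and Xcl1, a chemokine, at 57.9% and 65.5% against 4.11% and 6.30%. Of the 7 NKT markers listed, Il2rb, Cd160, Tbx21 and Gzma were also higher in percent of cells with a UMI in both libraries. However, Il2rb and Tbx21 were common in conventional CD4 cells without the pair too (76.3% and 33.0% labelled WT). Among CD8 cells without the pair, Il2rb was at 80.1% and 83.5%, Tbx21 at 42.5% and 52.6% and Cd160 at 35.8% and 33.5%. There, Gzma was at 17.6% and 11.4% and Xcl1 at 10.8% and 15.0%. Klrb1c was at 1.02% and 1.56% of CD8 cells and Zbtb16 at 0.308% and 0.341%. Cd4 had a UMI in 20.6% and 25.5% of the cells with the NKT pair and Cd8a in 3.97% and 6.36%. Ncr1, which marks NK cells, was at 0 and 0.909%. The MAIT pair TRAV1 with TRAJ33 was found in only 4 and 2 cells, too few to describe.

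Alpha chains were also shared more widely. By V family, J segment and translated CDR3, the cells of both libraries together held 6208 distinct alpha chains. Of these, 646 were found with 2 or more different beta chains, which includes chains whose betas came from different libraries. A clone whose leading beta contig differed between its cells would also count here, as would a doublet. Within a library this held for 206 of 2556 alpha chains labelled WT and 324 of 3887 labelled VISTA-KO. In all, 235 alpha chains were found in both libraries, which is 9.19% of those labelled WT and 6.05% of those labelled VISTA-KO. Leaving out the NKT pair, 10.4% to 14.2% of the clonotypes of a gate carried an alpha chain found with 2 or more betas in that gate and library. The highest share, in regulatory clonotypes labelled WT, was 14.2% (11.4 to 17.4), and its interval overlapped those of the other gates.

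The NKT chain was found with 211 beta chains, and a second TRAV11 TRAJ18 chain with 14. After these came TRAV12 with TRAJ40, found with 12 beta chains in 90 cells labelled WT and 9 labelled VISTA-KO, of which 95 were CD8 cells. It was encoded by TRAV12-2, TRAV12-3 and TRAV12D-3, and both junctions printed above add the same bases to different V genes. TRAV6 with TRAJ30 had 12 beta chains, 7 of them TRBV19, in 34 and 3 cells, and 33 of these cells were CD8. It was written by 5 nucleotide sequences. TRAV12 with TRAJ22 had 10 beta chains in 4 and 12 cells, and TRAV14 with TRAJ30 had 9 in 56 and 22 cells, 70 of them CD8. All 4 of these chains were found mostly in CD8 cells.

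Of the first 10, TRAV7 with TRAJ16 was found in the library labelled WT alone, with 8 beta chains, 6 of them TRBV5, in 24 cells, of which 16 were conventional CD4. Its 4 junctions differ at 1 base, as the pair printed above shows. TRAV7 with TRAJ7 (8 beta chains), TRAV14 with TRAJ22 (8) and TRAV14 with TRAJ13 (8) were found in both libraries with at most 9 cells in each. How many mice carried a shared chain is not known, since the mice of a library were pooled.

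Leaving out the NKT pair, the CDR3 of the alpha chain was of similar length in all gates. Its median was 42.0 nucleotides in each gate of both libraries except regulatory clonotypes labelled VISTA-KO, at 39.0, and the means ran from 40.5 to 40.9 (SD 3.90 to 4.33). A median of 2.5 to 3 bases lay outside the germline ends, and 13.4% to 15.5% of clonotypes had none. NKT clonotypes had a CDR3 of 45.0 nucleotides and a median of 0 such bases. The mean net charge of the CDR3, chosen after its values were seen, was 0.478 and 0.517 in CD8, 0.663 and 0.745 in conventional CD4 and 0.725 and 0.768 in regulatory clonotypes, with SDs from 0.795 to 0.890 that far exceed these gaps for a single clonotype.

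Trav transcripts in the gene expression libraries gave a readout of V use that did not come from the contigs. Of the cells with a TRA contig, 81.6% and 82.1% held a UMI of a Trav gene, and in these the family with the most UMIs was that of the contig in 75.4% (74.3 to 76.5) and 77.2% (76.2 to 78.2). Detection differed by family. TRAV8 transcripts were found in 98.3% and 99.5% of the cells with a TRAV8 contig, against 2.93% and 3.64% of cells with another family. TRAV16 stood at 94.5% and 93.7% against 2.04% and 3.21%, and TRAV12 at 47.0% and 65.1% against 2.82% and 4.65%. The share in cells with another family was highest for TRAV14 labelled WT (13.5%) and for TRAV13 labelled VISTA-KO (5.86%). TRAV11 was read in only 5.26% and 2.54% of cells with its contig. TRAV3 was read in 14.5% and 22.7%, against 4.25% and 5.48% of cells with another family. Gene counts thus undercount TRAV11 and TRAV3. Where a copy of the contig's V gene had a UMI, the leading copy was the called copy in 97.1% and 95.1% of cells.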

How the data were processed

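Single-cell 5′ gene expression and TCR contigs were analysed from 1 pooled library per genotype. Per the authors' methods, reads were processed with Cell Ranger 5.0.0 against mm10 (GRCm38). The deposited matrices hold raw UMI counts per gene and cell, and the deposited contig tables hold a V call, J call, junction and UMI count per contig. The labels' protocol describes a 3′ kit, whereas their description and the methods give a 5′ kit. A cell was kept if it had 600 or more genes with a UMI and if mitochondrial genes gave less than 30% of its UMIs. The 192 barcodes with alpha contigs of equal UMIs were settled by consensus reads. No doublet caller was run, and cells with 2 or more beta chains were left out as an alternative. Shares, ratios and intervals were computed in Python 3.11.15 with scipy 1.17.1 and pandas 2.3.3, and the scripts were tested on simulated data. Segments named are TRAV families with at least 5% or TRAJ with at least 3% of a gate, those called between gates, the 3 highest and lowest VISTA-KO over WT ratios per gate, the first 10 pairs, the first 10 shared alpha chains, and TRAV11, TRAV1, TRAJ18 and TRAJ33. The members and lists were chosen with earlier results of these data known. The alternatives changed the clonotype definition, cell filter, gates, alpha contig, weighting, threshold and minimum.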

Additional observations from a re-analysis of the deposited data

Results flagged for a closer look

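TRAJ27 and TRAJ53 had VISTA-KO over WT ratios of clonotype shares that lay on opposite sides of 1 in different gates. TRAJ27 was at 1.54 (0.923 to 2.64) in CD8 and 0.655 (0.375 to 1.14) in regulatory clonotypes. TRAJ53 was at 1.62 (0.797 to 3.49) in CD8 and 0.522 (0.205 to 1.29) in regulatory clonotypes. All 4 intervals held 1, and the difference between the gates was not tested.

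Cells of no gate, which held no UMI of Cd4, Cd8a or Cd8b1, entered no comparison of usage. They carried TRAV11 with TRAJ18 in 8.85% of cells labelled WT and 8.41% labelled VISTA-KO. Most NKT cells of both libraries lay there, 89 of 126 and 73 of 110.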

How the results depend on the processing

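No paired analysis was possible because each genotype had 1 library. The clone identifiers named as an alternative were not run, since that column is empty in the deposited contig tables. Of the alternative values of counts, clonotype numbers and rank correlations, 153 stayed within 1.5 times the reported value and 24 did not. Counting each cell in place of each clonotype moved most: the called numbers became 2 TRAV families and 5 TRAJ segments for regulatory against conventional CD4 (reported 1 and 2), 14 TRAJ for CD8 against conventional CD4 (6), 21 TRAV and 57 TRAJ for VISTA-KO against WT (4 and 26), and the WT rank correlation of V position with TRAJ number -0.366. A threshold of 2-fold left 3 TRAV and 1 TRAJ for CD8 against conventional CD4, 1 TRAJ for regulatory against conventional CD4, and 1 TRAV and 7 TRAJ for VISTA-KO against WT. With the alpha rearrangement alone, 0 TRAV and 1 TRAJ were called for regulatory against conventional CD4, and the NKT clonotypes came to 9 in each library, since the pair has few junctions. Without cells of 2 or more beta chains, and with every alpha contig, 1 TRAJ was called there. A minimum of 10 clonotypes gave 9 TRAV for VISTA-KO against WT. Single V genes gave 11 calls of 29 (37.9%) where families gave 5 of 13 (38.5%) for CD8 against conventional CD4. For regulatory against conventional CD4 these were 3 of 28 (10.7%) and 1 of 13 (7.69%). For VISTA-KO against WT they were 12 (33, 33 and 29 compared per gate) and 4 (15, 15 and 13). Counting cells or lowering the minimum also changes how many segments are compared, so those counts are not shares. Leaving out TRAV11 with TRAJ18, chosen after seeing the data, left 0 TRAV and 1 TRAJ for regulatory against conventional CD4 and 2 TRAV for VISTA-KO against WT.

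Of the ratios of single segments, 511 alternatives kept direction and call, 66 kept direction only and 3 turned. TRAJ17, VISTA-KO over WT in regulatory clonotypes, was 1.10 without cells of 2 or more beta chains. TRAJ18 was 1.55 for VISTA-KO over WT in CD8 when cells were counted, and 1.04 for CD8 over conventional CD4 in WT without TRAV11 with TRAJ18. The cause was not tested. TRAV12 and TRAV3, CD8 over conventional CD4 in WT, were 1.47 and 1.05 when cells were counted, under 1.5-fold. TRAV16 ranged from 2.52 to 3.62 and 2.00 to 4.23, and TRAV4 from 0.168 to 0.420 and 0.286 to 0.438, in WT and VISTA-KO. Precision is limited by the number of clonotypes and by the single library per genotype.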
